A study of Homo sapiens with 6 samples.

Results

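The BCL2 family genes described here are 10 genes picked by symbol from the 20111 genes of the deposited table. BCL2L1, MCL1 and BCL2L2 are survival members, BAX and BAK1 are effectors, and BID, BAD, BBC3, PMAIP1 and BCL2L11 are BH3-only members. RNA came from MDA-MB-231, a human cell line of triple-negative breast cancer. The cells had received siControl, a control siRNA, or siNCOA3, directed at the nuclear receptor coactivator NCOA3, or siSHC1, directed at the signalling adaptor SHC1. Collection was at 24 h or 48 h, and each of the 6 combinations of siRNA and time gave 1 library. All 6 groups share the cell line and the act of transfection, and no untransfected group was analysed here. The sequences of the siRNAs, and whether each is a single duplex or a pool, were not known here. A level is a gene's FPKM, its fragments set relative to transcript length and to the mapped fragments of the library. The spread of an siRNA group is the spread of its 24 h and 48 h libraries (n = 2). The labels do not say that these came from separate cultures, so p-values measure only the spread between these libraries. The fit behind the p-values has a term for time. Their spread is therefore what remains after a shift between times shared by all siRNAs, moderated over all genes. It is not the SD printed for a group.

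The proteins of this family decide at the mitochondrial outer membrane whether a cell starts the intrinsic path of apoptosis. BAX and BAK1 form the pores that let cytochrome c out. BCL-XL (from BCL2L1), MCL1 and BCL-W (from BCL2L2) hold them in check, and the BH3-only proteins bind the survival proteins or act on the effectors directly. MCL1 protein is short-lived, and NOXA, the product of PMAIP1, binds it in preference to BCL-XL. BCL2L1 and MCL1 both make isoforms with opposite actions, and a gene-level FPKM does not tell these apart.

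Both survival genes that differed between the siRNA groups, BCL2L1 after siNCOA3 and MCL1 after siSHC1, share a 7-base word in their 3′ UTRs. These sites are shown first, and a later paragraph describes all genes with the word. The word GCCCATC, in capitals below, had the lowest z after siSHC1 among 7-base words held by at least 50 genes. Here z is the mean log2 fold change of genes with a word minus that of genes without it. The difference is scaled by the SD over all genes and by the number of genes in each class, so common words are favoured. MCL1 and BCL2L1 were among the genes it was picked from. BCL2L1 itself did not pass after siSHC1 (log2 -0.13 by limma, adjusted p = 0.267), and the part of the word in its value was not tested. In GENCODE annotation of GRCh38, BCL2L1 lies on chromosome 20 and its 3′ UTR of 1497 bases holds the word once, from base 113. MCL1 lies on chromosome 1 and its 3′ UTR of 2819 bases holds the word once, from base 2115. None of the other 8 BCL2 family genes has it in the 3′ UTR. Among all 10815 tested genes with a 3′ UTR of at least 30 bases, 852 (7.88%) hold it.
BCL2L1 site: catgcccacctGCCCATCacagggttggg
MCL1 site: ctgccctgcctGCCCATCtcagagccata

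The targets matched the labels. NCOA3 stood at 10.3 and 11.4 FPKM in siControl at 24 h and 48 h and at 1.72 and 1.85 FPKM in siNCOA3, which is 15.4% and 16.3% of siControl after scaling. SHC1 stood at 103 and 119 FPKM in siControl and at 14.7 and 15.5 FPKM in siSHC1, or 13.4% and 13.3%. Libraries summed to between 495518 and 553073 FPKM with 14796 to 15221 genes above 0, and mitochondrially encoded genes held 17.3% to 18.7% of the sum. FPKM keep no fragment counts, so no counting interval can be given. All 6 markers present in the line were found, from EGFR at 28.7 to 54.0 FPKM to LGALS1 at 789 to 1315 FPKM. EGFR fell after siSHC1, from 48.9 and 44.4 to 32.9 and 28.7 FPKM (log2 -0.62 by limma, adjusted p = 0.0164). Of 5 markers the line should lack, PGR was listed at 0 in all 6 libraries and ESR1, FOXA1 and CDH1 did not exceed 0.572 FPKM, while GATA3 stood at 4.67 to 5.56 FPKM. Of 5 measured markers of other cell types, PTPRC and VWF stayed under 0.0549 FPKM, while CD68 stood at 44.3 to 63.1 FPKM. PDGFRB stood at 2.07 to 4.18 FPKM and did not pass after siSHC1 (log2 -0.001 by limma, adjusted p = 0.999). COL1A1, a fibroblast collagen gene, stood at 2.16 and 3.27 FPKM in siControl and 6.78 and 7.47 FPKM in siSHC1, and rose (log2 1.12 by limma, adjusted p = 0.00776). The 5 summed to 53.01 and 67.3 FPKM in siControl, 69.1 and 64.8 FPKM in siNCOA3 and 56.3 and 55.4 FPKM in siSHC1. Their part in the results was not tested.

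By mean level over all 6 libraries, which pools groups that differ, the 10 genes ran from BCL2L1 at 148 FPKM, through BAX (127 FPKM), BAD (110.5 FPKM), MCL1 (74.3 FPKM), PMAIP1 (53.7 FPKM), BAK1 (41.0 FPKM), BID (23.7 FPKM), BCL2L2 (13.1 FPKM) and BCL2L11 (7.31 FPKM), to BBC3 with 3.74 FPKM. BCL2L1 ranked 486 and BBC3 9582 among the 20111 genes. All 10 passed the filter on low values. The ranges of the first 6 over all 6 libraries overlapped with their neighbours in that order, except BAD with MCL1. These ranges include the differences between siRNA groups, so the overlaps are not replicate spread alone. Within each library PMAIP1 exceeded BAK1. The order of the 10 genes also differed by siRNA. In siNCOA3 both BCL2L1 libraries lay below those of BAX, and in siSHC1 both MCL1 libraries lay below those of PMAIP1 and BAK1.

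**Figure D1:**
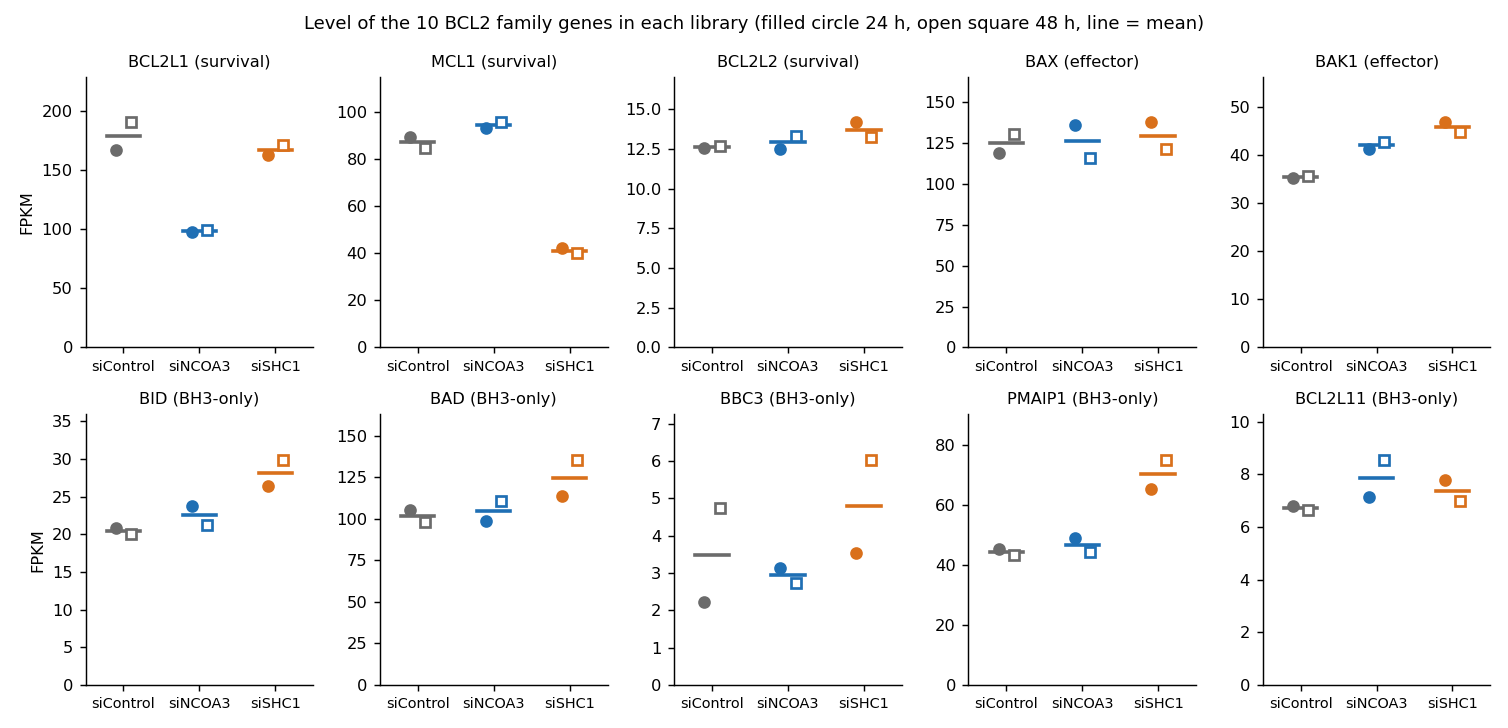
FPKM of each of the 10 BCL2 family genes (vertical axes, from 0, with a scale of their own) in the siControl, siNCOA3 and siSHC1 libraries. Filled circles are 24 h, open squares are 48 h and lines are means of both. BCL2L1 is lowest in siNCOA3 (97.6 and 99.7 FPKM), MCL1 is lowest in siSHC1 (42.1 and 40.2 FPKM), and PMAIP1 is highest in siSHC1 (65.3 and 75.1 FPKM).

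After siNCOA3, 1 of the 10 genes passed the test and it was a survival gene. BCL2L1 fell 1.86-fold, and the other 9 genes did not pass. The background was small: limma called 13 of 11690 tested genes, 0.111%, all of them lower, and BCL2L1 ranked 6 by p. After siSHC1, 2 of the 10 passed. MCL1 fell 2.14-fold and PMAIP1, the gene of its BH3-only partner NOXA, rose 1.53-fold, where limma called 751 of all genes, 6.42%, with 363 higher and 388 lower. The 2 comparisons share the siControl libraries. The direct comparison of siSHC1 with siNCOA3 called 3 of the 10, against 1139 genes or 9.74% of all, with BCL2L1 and PMAIP1 higher and MCL1 lower in siSHC1. The median log2 fold change of the 10 was 0.01 after siNCOA3 and 0.17 after siSHC1, beside -0.0006 and 0.004 for all tested genes.

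BCL2L1 encodes BCL-XL, the survival protein that binds BAX, BAK and most BH3-only proteins. It stood at 167 and 190.5 FPKM in siControl, 97.6 and 99.7 FPKM in siNCOA3, and 162 and 172 FPKM in siSHC1, each at 24 h and 48 h. Both siNCOA3 libraries lay far below the other 4, and the siSHC1 and siControl libraries overlapped. The means were 179 ± 16.7 (SD, n = 2), 98.7 ± 1.45 and 167 ± 6.50 FPKM. With limma, the log2 fold change of BCL2L1 after siNCOA3 was -0.90 ± 0.07 (SE), with a Benjamini-Hochberg adjusted p of 0.00663. The single differences were -0.88 at 24 h and -0.91 at 48 h. After siSHC1 the log2 fold change was -0.13 ± 0.07 (adjusted p = 0.267). The difference between the siRNAs was itself tested, and BCL2L1 was 1.70-fold higher in siSHC1 than in siNCOA3 (log2 0.77 ± 0.07, adjusted p = 0.00265). The size of the fall after siNCOA3 changed little without any 1 library, from -0.92 to -0.88, but its call was lost without siControl 24 h (adjusted p = 0.0754), siControl 48 h (0.0644), siNCOA3 24 h (0.0502) or siNCOA3 48 h (0.0616). It was also lost with no filter on low values (0.142) and with no trend or robust step in limma (0.118). BCL2L1 shares 1224 exon bases with the antisense gene ABALON, which was not analysed here. BCL2L11 shares 727 with MIR4435-2HG, BAD 104 with GPR137 (50.8 to 66.9 FPKM) and BAK1 91 with GGNBP1, all on opposite strands. The library kit keeps strand, but the sources used here do not say whether the counting did, so these values are uncertain to that extent.

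MCL1 is the survival protein with the fastest turnover of the family. It stood at 89.5 and 84.9 FPKM in siControl, 93.5 and 95.8 FPKM in siNCOA3, and 42.1 and 40.2 FPKM in siSHC1. The siSHC1 libraries held less than any other library. Before scaling, the siNCOA3 libraries lay just above siControl. After scaling, MCL1 in siNCOA3 was at 96.6% of siControl at 24 h and at 114% at 48 h. The means were 87.2 ± 3.28, 94.6 ± 1.61 and 41.2 ± 1.35 FPKM (SD, n = 2 each). In limma's fit the log2 fold change of MCL1 after siSHC1 was -1.10 ± 0.09, with an adjusted p of 0.00250, and MCL1 ranked 22 by p among all tested genes. The single differences were -1.17 at 24 h and -1.03 at 48 h. After siNCOA3 the log2 fold change was 0.07 ± 0.09 (adjusted p = 0.830), and MCL1 was 2.25-fold lower in siSHC1 than in siNCOA3 (log2 -1.17 ± 0.09, adjusted p = 0.00161). The fall after siSHC1 stayed called without any 1 library and lost its call with no filter on low values (adjusted p = 0.169).

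BCL2L2, which encodes BCL-W, was the scarcest and steadiest of the survival genes. It stood at 12.5 and 12.7 FPKM in siControl, 12.5 and 13.3 FPKM in siNCOA3, and 14.2 and 13.2 FPKM in siSHC1. Before scaling, the siNCOA3 range overlapped that of siControl, and both siSHC1 libraries lay above siControl by less than 2 FPKM. The log2 fold changes were -0.02 ± 0.10 after siNCOA3 (adjusted p = 0.971) and 0.08 ± 0.10 after siSHC1 (adjusted p = 0.670). Its exons share 588 bases on the same strand with the read-through gene BCL2L2-PABPN1, listed at 14.8 to 20.1 FPKM, so the split of fragments between both is uncertain.

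**Figure D2:**
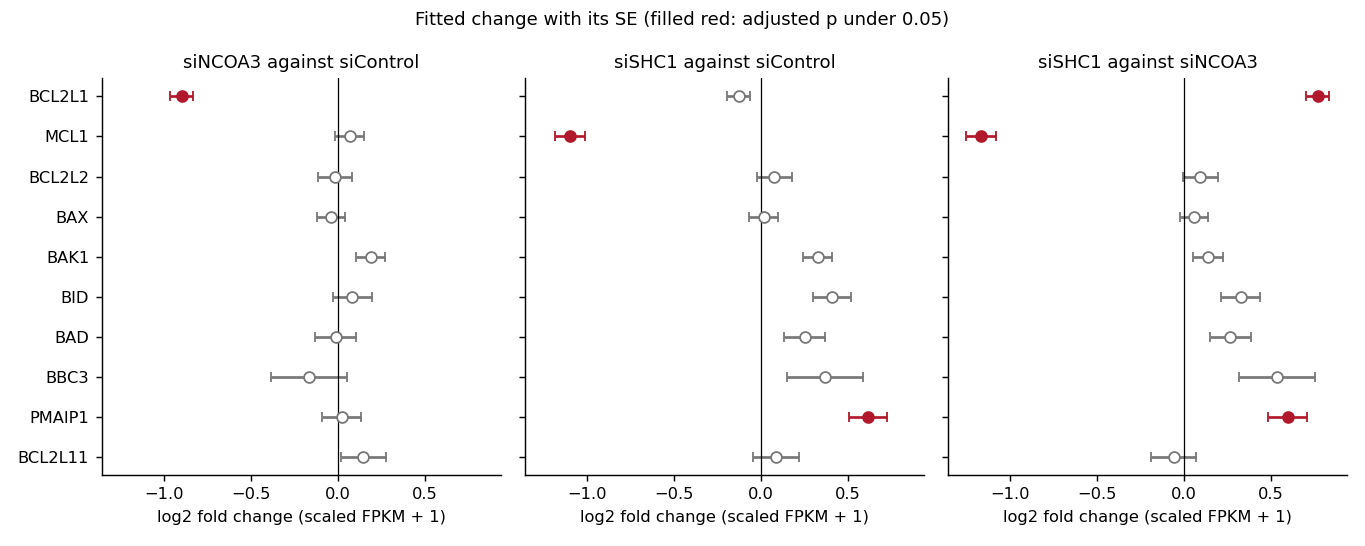
Fitted log2 fold change on the log2(scaled FPKM + 1) scale (horizontal axes) with its SE for the 10 BCL2 family genes, in 3 panels for siNCOA3 against siControl, siSHC1 against siControl and siSHC1 against siNCOA3. Filled red points passed limma's test: BCL2L1 in the first panel (-0.90), MCL1 (-1.10) and PMAIP1 (0.62) in the second, and BCL2L1 (0.77), MCL1 (-1.17) and PMAIP1 (0.59) in the third.

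The makeup of the survival transcripts therefore differed between the siRNA groups at both times, as ratios within a library that no scaling between libraries can alter. BCL2L1 exceeded MCL1 by 1.86 and 2.24 times in siControl, by 1.04 and 1.04 times in siNCOA3, and by 3.86 and 4.27 times in siSHC1. The 3 groups do not overlap, with siNCOA3 near equal levels of both. BCL2L1 made up 62.1% and 66.1% of the summed FPKM of the 3 survival genes in siControl, 47.9% and 47.7% in siNCOA3, and 74.3% and 76.3% in siSHC1. The sum itself was lower in both knockdowns, at 269 and 288 FPKM in siControl, 204 and 209 FPKM in siNCOA3, and 219 and 225 FPKM in siSHC1. These ratios and sums restate the levels of BCL2L1 and MCL1 and were given no test of their own.

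**Figure D3:**
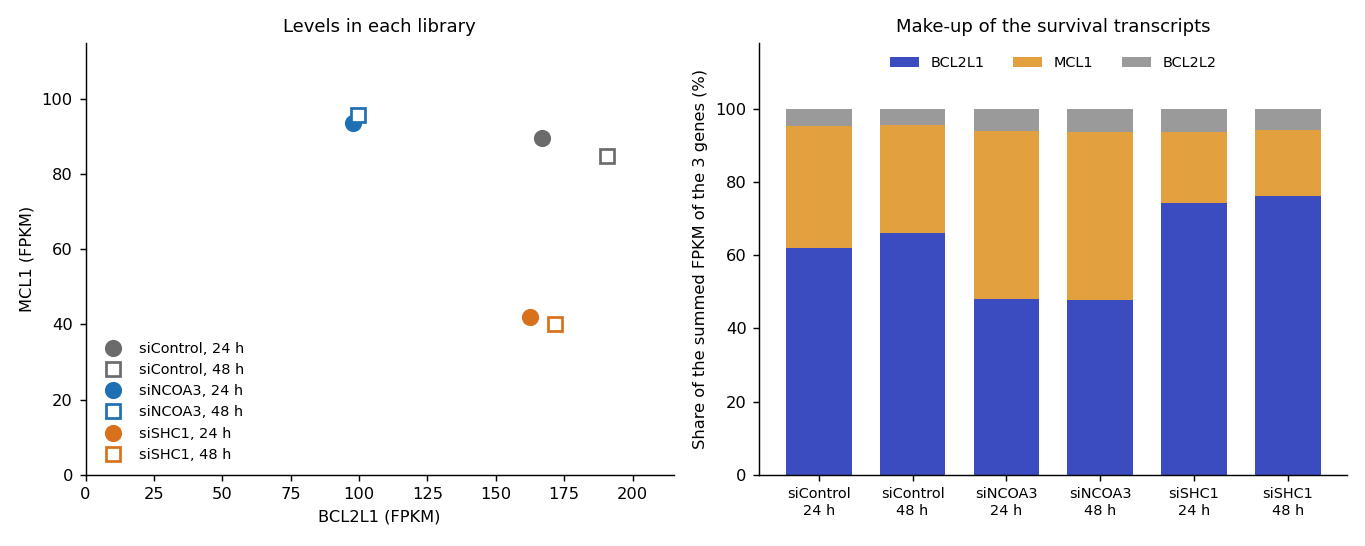
Left, MCL1 against BCL2L1 in FPKM, 1 point for each of the 6 libraries. Right, the share of BCL2L1, MCL1 and BCL2L2 in the summed FPKM of these 3 genes in each library (bars from 0 to 100%). The siNCOA3 libraries move left on the first axis, the siSHC1 libraries move down, and the BCL2L1 share runs from 47.7% in siNCOA3 at 48 h to 76.3% in siSHC1 at 48 h.

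The pore-forming effectors passed no test. BAX stood at 119 and 131 FPKM in siControl, 136 and 116 FPKM in siNCOA3, and 138 and 121 FPKM in siSHC1. Its groups overlapped fully, with log2 fold changes of -0.04 ± 0.08 after siNCOA3 (adjusted p = 0.901) and 0.02 ± 0.08 after siSHC1 (adjusted p = 0.922). BAK1 stood at 35.1 and 35.6 FPKM in siControl, 41.1 and 42.7 FPKM in siNCOA3, and 46.7 and 44.7 FPKM in siSHC1. Its 3 groups did not overlap, in the order siControl, siNCOA3, siSHC1. The share of all genes whose groups separate in this way was not counted, so that order is only a description. The log2 fold change of BAK1 was 0.19 ± 0.08 after siNCOA3 (adjusted p = 0.498) and 0.33 ± 0.08 after siSHC1 (adjusted p = 0.0703), neither past the threshold of 0.05. Summed, the effectors held 154 and 166 FPKM in siControl, 177 and 159 FPKM in siNCOA3, and 185 and 166 FPKM in siSHC1.

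All 5 BH3-only genes had fitted values above 0 after siSHC1, with a median log2 fold change of 0.37, and 1 of the 5 passed the test. Of all tested genes 50.7% were above 0 and 6.42% passed in that comparison. After siNCOA3, 3 of the 5 were above 0 with a median of 0.02, and 0 passed. PMAIP1 was the one called. Its protein NOXA is a small BH3-only protein that pairs with MCL1. PMAIP1 stood at 45.3 and 43.2 FPKM in siControl, 48.9 and 44.3 FPKM in siNCOA3, and 65.3 and 75.1 FPKM in siSHC1. Both siSHC1 libraries lay above all others, and the siControl and siNCOA3 libraries overlapped. The means were 44.3 ± 1.49, 46.6 ± 3.22 and 70.2 ± 6.90 FPKM (SD, n = 2 each). By limma, the log2 fold change of PMAIP1 after siSHC1 was 0.62 ± 0.11 (adjusted p = 0.0294), from single differences of 0.42 at 24 h and 0.81 at 48 h. Against siNCOA3 it was 0.59 ± 0.11 (adjusted p = 0.0241), and after siNCOA3 0.02 ± 0.11 (adjusted p = 0.964). The call against siControl was lost without siControl 24 h (adjusted p = 0.0852), siControl 48 h (0.143) or siSHC1 48 h (0.124), where the log2 fold change ran between 0.44 and 0.72, and with no filter (0.307) or no trend or robust step (0.0648). The call against siNCOA3 was lost without siNCOA3 24 h (0.0577), siNCOA3 48 h (0.142) or siSHC1 48 h (0.116), with no filter (0.295) and with no trend or robust step (0.0515).

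The ratio of PMAIP1 to MCL1, a ratio of transcripts and not of proteins, was 0.506 and 0.509 in siControl and 0.523 and 0.463 in siNCOA3. In siSHC1 it was 1.55 and 1.87, so PMAIP1 exceeded MCL1 in those libraries alone among the 6. The ratio combines a fall of MCL1 and a rise of PMAIP1 already given.

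BID, which caspase-8 cleaves to link death receptors to mitochondria, stood at 20.9 and 20.0 FPKM in siControl, 23.8 and 21.3 FPKM in siNCOA3, and 26.5 and 29.9 FPKM in siSHC1. The siSHC1 libraries lay above all others. The log2 fold change of BID after siSHC1 was 0.41 ± 0.11 (adjusted p = 0.0778). Without siSHC1 24 h it was 0.58 and was called (adjusted p = 0.0431), and without siSHC1 48 h it was 0.24 (adjusted p = 0.411). After siNCOA3 it was 0.08 ± 0.11 (adjusted p = 0.835).

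BAD, whose protein is held inactive when survival kinases phosphorylate it, was the most abundant BH3-only transcript. It stood at 105 and 98.4 FPKM in siControl, 98.8 and 111 FPKM in siNCOA3, and 114 and 136 FPKM in siSHC1. Its siSHC1 libraries were the highest, the other groups overlapped, and the log2 fold change after siSHC1 was 0.25 ± 0.12 (adjusted p = 0.227). It was 0.46 without siControl 24 h and 0.038 without siControl 48 h.

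BBC3, the gene of PUMA and a p53 target, was the scarcest, at 2.23 and 4.74 FPKM in siControl, 3.14 and 2.74 FPKM in siNCOA3, and 3.53 and 6.04 FPKM in siSHC1. Its siControl libraries differed from each other more than the group means did. The log2 fold changes were -0.17 ± 0.22 after siNCOA3 (adjusted p = 0.833), 0.37 ± 0.22 after siSHC1 (adjusted p = 0.334) and 0.53 ± 0.22 for siSHC1 against siNCOA3 (adjusted p = 0.159). The last was called without siNCOA3 24 h (0.95, adjusted p = 0.0349) and was 0.12 without siNCOA3 48 h (adjusted p = 0.763). BCL2L11, the gene of BIM, stood at 6.81 and 6.63 FPKM in siControl, 7.12 and 8.56 FPKM in siNCOA3, and 7.79 and 6.97 FPKM in siSHC1. No BCL2L11 comparison passed, with log2 fold changes of 0.15 ± 0.13 after siNCOA3 (adjusted p = 0.740) and 0.09 ± 0.13 after siSHC1 (adjusted p = 0.719). Over all 5 genes the summed BH3-only level was 181 and 173 FPKM in siControl, 182 and 188 FPKM in siNCOA3, and 217 and 254 FPKM in siSHC1.

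Between the times no BCL2 family gene changed by the test used. None of the 10 genes passed limma's test of 48 h against 24 h, where 3 of all genes did, 0.0257%. At an unadjusted p under 0.05 it was 1 of the 10, beside 1660 of the 11690 genes. That gene was BBC3 (log2 0.42 ± 0.18, unadjusted p = 0.0494, adjusted p = 0.352), with differences of 0.75 in siControl, -0.13 in siNCOA3 and 0.65 in siSHC1. The other 9 fitted values lay between -0.11 for BAX and 0.08 for BAD.

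The site shared by BCL2L1 and MCL1 was set against all genes with a 3′ UTR. Of 10815 tested genes with a 3′ UTR of at least 30 bases, 852 (7.88%) held GCCCATC. After siSHC1, 153 of these 852 genes, 18.0%, were called lower and 19 were called higher. Of the 9963 genes without it 216, or 2.17%, were called lower. The median log2 fold change with the word was -0.14, and 70.7% of the values were below 0. MCL1 ranked 26 from the lowest among the 852 and BCL2L1 ranked 438, so the 2 sites went with a fall in MCL1 and a BCL2L1 value near the middle of the genes with the word. Among the genes of the other lists, 6 hold the word in the 3′ UTR. CASP2, an initiator caspase gene, holds 1 copy and fell (log2 -0.61), and COL1A1 holds 2 copies and rose (1.12). The other 4 were not called, with log2 values of -0.51 for TP73 (2 copies), -0.08 for CFLAR (2 copies), -0.03 for USP9X (1 copy) and -0.001 for PDGFRB (1 copy). The word was picked from these same fold changes, so its link with them is a description. The part of the word in the MCL1 value was not tested, and the siRNA sequence was not known here.

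**Figure D4:**
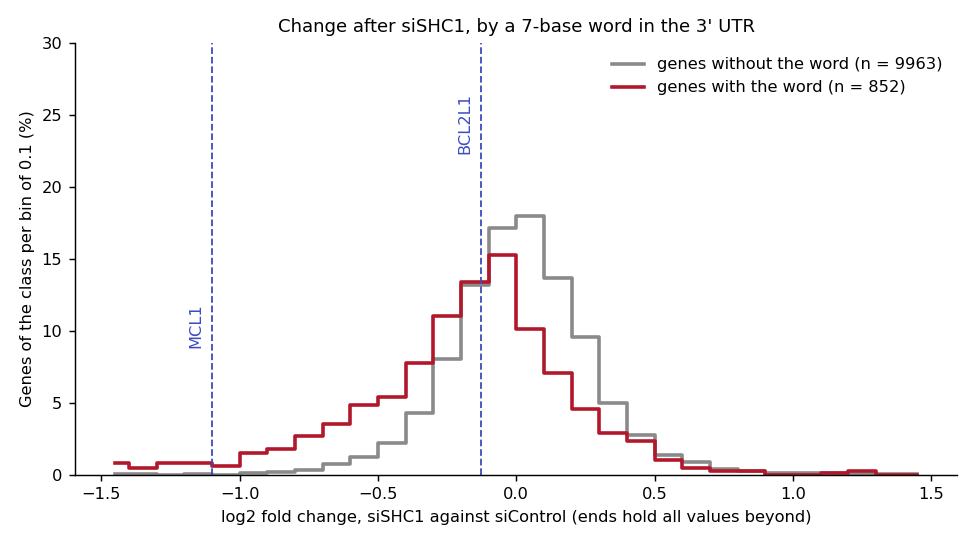
Distribution of the log2 fold change after siSHC1 (horizontal axis) for the 852 genes with GCCCATC in the 3′ UTR (red) and the 9963 without it (grey), as the percent of each class per bin of 0.1. Dashed lines mark MCL1 (-1.10), in the low tail of both classes, and BCL2L1 (-0.13), near the median of the genes with the word (-0.14).

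For siNCOA3 the word with the lowest z, found in the same way, was GTCAAGA. Among the genes with a 3′ UTR 8.08% hold it, and among the 12 of them called lower 5 do. None of the 10 BCL2 family genes has GTCAAGA in its 3′ UTR, and the whole BCL2L1 transcript of 2578 bases holds no copy. This word too was picked from these same fold changes, and no other word chosen from siNCOA3 was looked up in BCL2L1. The part of 3′ UTR words in the BCL2L1 value was not tested, and the siRNA sequence was not known here.

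Promoter windows from RefSeq (GRCh38.p14, from 250 bases before to 50 after a start site) were found for 8 of the 10 genes. MCL1 and BCL2L2 had none in the table. Those of BCL2L1 and PMAIP1 are printed because these genes were called. Capitals mark matches, on either strand, to the TATA box TATAAA, the ETS core CCGGAA, the CRE core TGACG or the GC box GGGCGG. The first BCL2L1 window, on the minus strand at chr20:31723914-31724213, holds TATAAA from bases -208 and -125, TGACG from -201 and CCGGAA from 10. The second, on the minus strand at chr20:31722819-31723118, holds 1 GC box from -5, and the PMAIP1 window, on the plus strand at chr18:59899746-59900045, holds 4 GC boxes from -146, -106, -94 and -82 and TGACG from -55.
BCL2L1 window 1: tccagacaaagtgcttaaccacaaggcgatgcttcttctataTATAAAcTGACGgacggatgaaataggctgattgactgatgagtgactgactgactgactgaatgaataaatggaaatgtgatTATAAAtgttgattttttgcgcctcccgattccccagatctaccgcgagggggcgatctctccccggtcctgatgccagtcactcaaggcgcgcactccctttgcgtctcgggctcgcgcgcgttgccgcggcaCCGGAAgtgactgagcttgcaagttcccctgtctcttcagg
BCL2L1 window 2: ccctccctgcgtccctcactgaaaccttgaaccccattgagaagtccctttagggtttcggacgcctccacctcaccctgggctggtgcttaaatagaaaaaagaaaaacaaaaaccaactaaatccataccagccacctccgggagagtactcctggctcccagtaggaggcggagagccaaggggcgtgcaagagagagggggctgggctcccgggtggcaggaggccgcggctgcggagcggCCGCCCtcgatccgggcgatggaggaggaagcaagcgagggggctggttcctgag
PMAIP1: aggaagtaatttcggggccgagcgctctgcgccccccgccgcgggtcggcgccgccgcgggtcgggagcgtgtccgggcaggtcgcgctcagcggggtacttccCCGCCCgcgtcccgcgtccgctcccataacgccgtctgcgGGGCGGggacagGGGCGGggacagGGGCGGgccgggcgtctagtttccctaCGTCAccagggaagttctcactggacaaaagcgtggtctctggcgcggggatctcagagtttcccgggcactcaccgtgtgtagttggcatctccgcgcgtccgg
These letters are common. Of 35116 RefSeq promoter windows of the same length, 45.0% hold GGGCGG, 24.6% TGACG, 17.2% CCGGAA and 11.5% TATAAA on at least 1 strand. The CRE core is part of the longer element TGACGTCA, which 1.85% of windows hold and none of these 3 does. Letters of the CCAAT box, AP-1, E-box, C/EBP-ATF, STAT, p53 half-site and NF-kB were also searched for. None of these 3 windows holds a match to them. Matches are descriptions of sequence, and no binding was measured.

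The genes whose levels ran most like the called members over the 6 libraries were found by Pearson's r of log2(scaled FPKM + 1) among the 8925 tested genes whose mean reached 5 FPKM. With 6 points that share 3 siRNA groups, a high r is common, and r is given as a description. For BCL2L1 these were PCBP1 (r = 0.998), SGSM2 (0.991) and STAT5B (0.990). PCBP1, an RNA-binding protein gene, stood at 152 and 178 FPKM in siControl, 103 and 103 FPKM in siNCOA3, and 158 and 160 FPKM in siSHC1, a pattern and a level close to those of BCL2L1. For MCL1 they were TFDP1 (0.998), TMEM14C (0.997) and RLIM (0.997). RLIM, a ubiquitin ligase gene, stood at 14.9 and 14.5 FPKM in siControl and 8.09 and 7.78 FPKM in siSHC1. For PMAIP1 they were PRKCZ (0.999), ACTR10 (0.992) and HABP4 (0.992).

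Around the 10 genes, the rest of the family was scarce or did not pass after siNCOA3. Of 13 other BCL2 family genes, 8 were expressed enough to be tested. BCL2 itself, the founding survival gene, stood at 2.15 and 1.63 FPKM in siControl, 2.49 and 1.68 FPKM in siNCOA3, and 1.69 and 1.21 FPKM in siSHC1, far under BCL2L1 and MCL1 in each library. None of the 8 passed after siNCOA3, and 2 rose after siSHC1, beside 3.11% of all tested genes. BNIP3, a mitophagy receptor gene with a BH3-like stretch, stood at 200.1 and 267 FPKM in siControl, 244 and 246 FPKM in siNCOA3, and 333 and 421 FPKM in siSHC1 (log2 0.66 ± 0.09 by limma, adjusted p = 0.0141). Its relative BNIP3L stood at 63.1 and 88.9 FPKM in siControl and 102 and 119 FPKM in siSHC1 (log2 0.52 ± 0.08, adjusted p = 0.0240). Both are also known as targets of hypoxia signalling and act mainly in removing mitochondria. The 8 had a median log2 fold change of 0.20 after siSHC1.

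Downstream of the pores, the 9 genes of cytochrome c release and the apoptosome had no call against siControl. In siSHC1 against siNCOA3, 1 of the 9 was called lower, beside 4.4% of all tested genes. It was VDAC3, an outer membrane channel gene (log2 -0.40 ± 0.09, adjusted p = 0.0460). Of 7 caspases, 2 fell after siSHC1, beside 3.32% of all tested genes, and none passed after siNCOA3. CASP2 stood at 15.0 and 15.3 FPKM in siControl, 15.5 and 16.6 FPKM in siNCOA3, and 11.4 and 8.41 FPKM in siSHC1 (log2 -0.61 ± 0.13, adjusted p = 0.0439). The death receptor caspase gene CASP10 stood at 2.58 and 3.22 FPKM in siControl, 1.81 and 2.14 FPKM in siNCOA3, and 1.38 and 1.70 FPKM in siSHC1 (log2 -0.64 ± 0.13, adjusted p = 0.0387). Among 5 genes of inhibitor of apoptosis proteins none was called in any of the 4 comparisons, and the value of BIRC3 for siSHC1 against siNCOA3 was 0.58 ± 0.16 (adjusted p = 0.0644).

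Of 11 death receptor pathway genes, 0 passed against siControl and 2 were higher in siSHC1 than in siNCOA3, beside 5.35% of all tested genes. TNFSF10, the gene of the death ligand TRAIL, stood at 27.0 and 47.5 FPKM in siControl, 18.4 and 21.0 FPKM in siNCOA3, and 36.8 and 54.2 FPKM in siSHC1. Its siNCOA3 libraries were the lowest, and siSHC1 against siNCOA3 gave log2 1.16 ± 0.13 (adjusted p = 0.00587). Its receptor gene TNFRSF10A differed by 0.59 ± 0.11 in the same comparison (adjusted p = 0.0254). Of 13 regulators of the family's transcription and turnover, none passed against siControl. Between siSHC1 and siNCOA3, 1 of the 13 was higher and 1 was lower, beside 5.35% and 4.4% of all tested genes. The stress-response factor gene DDIT3 was higher (log2 0.48 ± 0.10, adjusted p = 0.0290), and the p53 relative TP73 was lower (-0.65 ± 0.13, adjusted p = 0.0319).

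Of 16 p53 target genes, a list that includes BAX, BBC3 and PMAIP1, 2 rose after siSHC1, beside 3.11% of all tested genes, and none passed after siNCOA3. They were PMAIP1 and the cell cycle inhibitor gene CDKN1A, at 41.3 and 46.1 FPKM in siControl, 52.1 and 54.1 FPKM in siNCOA3, and 54.5 and 71.1 FPKM in siSHC1 (log2 0.47 ± 0.11, adjusted p = 0.0490). The median of the 16 after siSHC1 was 0.02, close to the 0.004 of all genes. In siSHC1 against siNCOA3, 2 of the 16 were higher, beside 5.35% of all tested genes. They were PMAIP1 and RRM2B, a ribonucleotide reductase gene (RRM2B log2 1.03 ± 0.18, adjusted p = 0.0194). Time gave no call in any of these 7 lists.

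**Figure D5:**
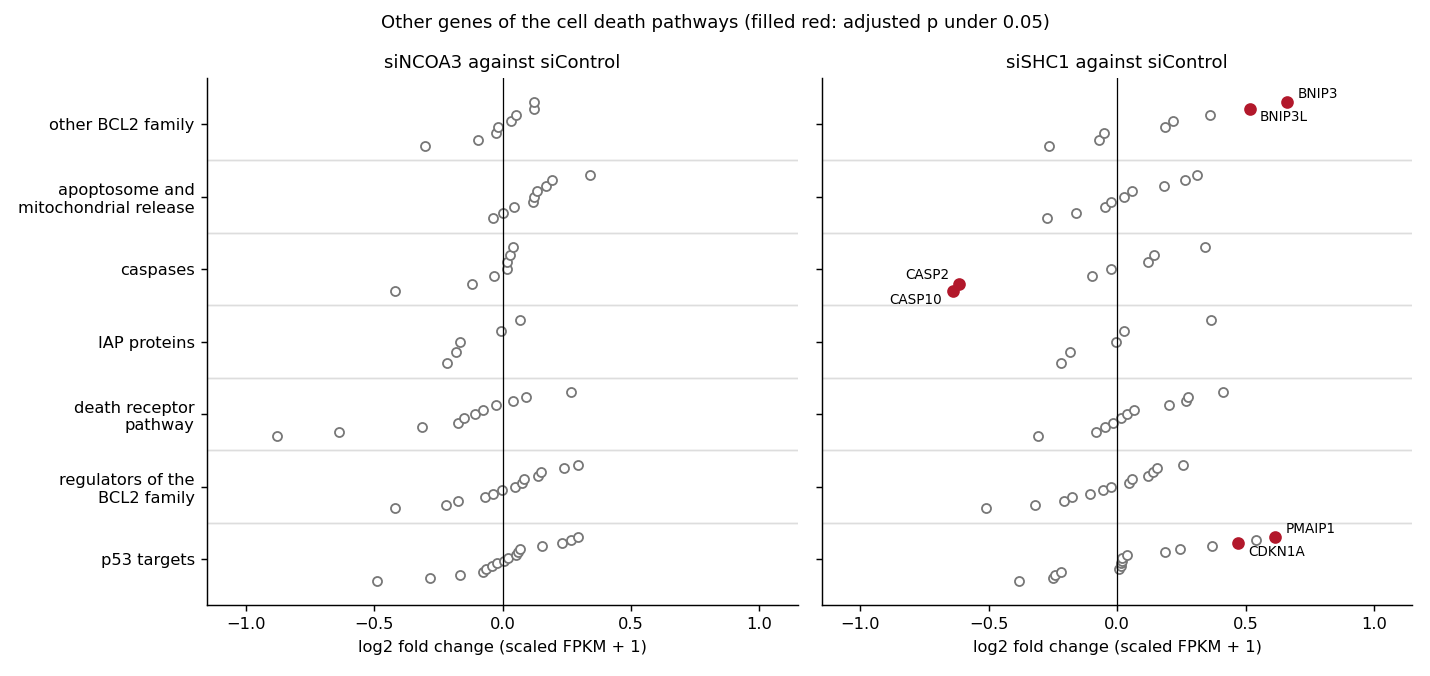
Log2 fold change on the log2(scaled FPKM + 1) scale (horizontal axes) of every tested gene in 7 lists of cell death genes (vertical positions), after siNCOA3 (left) and siSHC1 (right). Filled red points passed limma's test: none after siNCOA3, and BNIP3 (0.66), BNIP3L (0.52), CASP2 (-0.61), CASP10 (-0.64), PMAIP1 (0.62) and CDKN1A (0.47) after siSHC1.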

How the data were processed

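RNA of 6 libraries was sequenced, and the authors deposited 1 gene table. The table is named for read counts, but its values are not whole numbers and were read as FPKM, which the authors deposited after processing for which the submitters' processing notes name STAR, Cufflinks and DESeq2, without their roles, and build hg19. The sources used here give no versions, annotation, filters or strand settings. FPKM are not counts, so no count test was run, and the depth is unknown. All 6 columns were used and matched by name.

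FPKM were scaled by the median of ratios over 11042 genes with at least 1 FPKM in all 6 libraries. Genes with at least 1 scaled FPKM in at least 2 libraries, 11690 of 20111, were tested on log2(scaled FPKM + 1) with limma 3.58.1 in R 4.3.3 (lmFit, and eBayes with trend and robust) in an additive model of siRNA and time with 2 residual degrees of freedom. A fold change is on that scale, which understates the change of low genes. P-values were Benjamini-Hochberg adjusted over all tested genes within a comparison, threshold 0.05. The script was tested on simulated data.

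The time of collection is the replicate number in this layout, so the model with time is the one with the replicate block. Groups follow the labels. The members and gene lists were chosen with earlier results of these data known. Named genes are the 10 members, both targets, up to 4 called genes per other list and comparison (up to 2 by size where none was called), and the 3 genes most like each called member. Alternatives were other scalings, filters and pseudocounts, no trend and robust moderation, no term for time, and leaving out each library. Gene sequences came from GENCODE and RefSeq by symbol, and 10 of 10 members had a 3′ UTR. PECAM1 was not analysed here.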

Additional observations from a re-analysis of the deposited data

Results flagged for a closer look

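Differences between single libraries pointed in opposite directions at the 2 times, each by at least 0.1 on the log2 scale, in 3 of the 30 combinations of a BCL2 family gene and an siRNA comparison. These differences rest on 1 library per siRNA and time and were not tested. BAD after siNCOA3 differed from siControl by -0.20 at 24 h and by 0.18 at 48 h. BBC3 after siNCOA3 differed by 0.27 at 24 h and by -0.61 at 48 h, and BBC3 is the scarcest of the 10 genes. BCL2L11 in siSHC1 differed from siNCOA3 by 0.13 at 24 h and by -0.25 at 48 h.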

How the results depend on the processing

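The 40 changes of the 10 genes were refitted under 14 alternatives each, 560 values in all. Of these, 490 kept their direction and side of the threshold, 19 lost a call, 2 gained one and 49 changed sign, of which 0 were called in either setting. With no filter on low values, 0 of the 10 genes were called after siNCOA3, after siSHC1 and between siSHC1 and siNCOA3, where limma called 0, 14 and 10 of all genes, with 1531, 2953 and 3172 at an unadjusted p under 0.05. With no trend and no robust moderation 0 were called after siNCOA3 and 1 after siSHC1, of 3 and 316 genes. Leaving out 1 library at a time gave 0 to 1, 1 to 3 and 2 to 3 called members for the same comparisons, with 2 to 38, 62 to 867 and 233 to 1034 genes called. A lone library is then assumed to vary like the other groups. Without the term for time (no replicate block) 1, 2 and 3 members were called as before, and 9, 226 and 450 genes, so the block changed no call of the 10 genes. Small values changed sign. With no scaling, BCL2L2 was at 0.029, BAX at 0.0099 and BAD at 0.038 after siNCOA3, and for time BCL2L2 was at 0.0028 and BAK1 at 0.0043. With equal library totals PMAIP1 was at -0.00061 after siNCOA3, BAX at -0.046 after siSHC1 and BCL2L11 at -0.013 for time. Without 1 library, values after siNCOA3 ran from -0.22 to 0.20 for BAD, -0.15 to 0.071 for BAX, -0.58 to 0.25 for BBC3, -0.041 to 0.33 for BCL2L11, -0.11 to 0.073 for BCL2L2, -0.0089 to 0.18 for BID, -0.023 to 0.16 for MCL1 and -0.087 to 0.13 for PMAIP1. After siSHC1 they ran from -0.097 to 0.13 for BAX and -0.0099 to 0.18 for BCL2L11. Between siSHC1 and siNCOA3 they ran from -0.019 to 0.13 for BAX and -0.25 to 0.13 for BCL2L11. For time they ran from -0.0098 to 0.23 for BAD, -0.061 to 0.017 for BAK1, -0.12 to 0.066 for BCL2L11, -0.078 to 0.016 for BCL2L2, -0.15 to 0.030 for BID, -0.11 to 0.0053 for MCL1 and -0.14 to 0.051 for PMAIP1. The cause of these changes was not tested. FPKM give no depth, so what counting error limits cannot be stated.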
